A study of Mus musculus with 20 samples.

Results

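The genes described here are 39 mRNAs of plasma proteins that the liver makes for blood clotting and for complement, 20 of coagulation and fibrinolysis and 19 of complement. They were chosen by name, from a list of known clotting and complement genes, out of 26830 genes with at least a single count. All 39 were matched by symbol in the transcript count tables, and all 39 passed the filter on low counts. The tissue was the right lobe of the liver, taken from 20 male fetuses of the outbred mouse strain CD-1 IGS at embryonic day 18.5. The control group held 5 litters of control dams and the second group 5 litters of dams under maternal nutrient restriction (MNR), with 2 littermates sequenced per litter. The labels give neither the form nor the length of the restriction, and they name no genetic change in either group. A fetus is named by group, litter letter and number, and litters that share a letter come from different dams.

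Coagulation works as a chain of proteases. Each circulates as an inactive precursor, is cut by the one before it, and the last, thrombin, cuts fibrinogen into the fibrin of a clot. Inhibitors in plasma restrain each step, and plasmin later dissolves the fibrin. Complement is a second protease chain, which marks microbes and damaged cells. It is started by antibodies (classical pathway) or by sugar-binding lectins (lectin pathway), converges on the cleavage of C3, and ends in a pore assembled from C5 to C9. Hepatocytes secrete most of these proteins, and in late gestation the liver is also the site of blood formation, so its mRNA is a mixture of hepatocyte and blood cell transcripts.

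The promoters shown here belong to the subunits of 2 assembled proteins that behaved differently across litters. Fibrinogen is built from the chains Fga, Fgb and Fgg, and complement C8 from C8a, C8b and C8g. RefSeq promoters of the mouse assembly GRCm38.p6 were found for 29 of the 39 genes, as 30 promoters. C8g has 2 of these, which hold none of the motifs below and are not printed. The 250 bases before the start are printed 5′ to 3′ on the gene's strand. Capitals mark matches on either strand to the core GTTAAT of the hepatocyte factor HNF1, the C/EBP core TTGCNNAA, or CTGGGAA, a core of STAT3 response elements of acute phase genes.
Fga, chr3:83025903-83026152, plus strand: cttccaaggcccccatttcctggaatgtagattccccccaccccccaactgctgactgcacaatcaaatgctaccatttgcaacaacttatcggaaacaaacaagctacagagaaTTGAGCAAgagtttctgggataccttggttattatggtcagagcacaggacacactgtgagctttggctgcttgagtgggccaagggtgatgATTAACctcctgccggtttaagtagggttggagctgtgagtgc
Fgb, chr3:83049864-83050113, minus strand: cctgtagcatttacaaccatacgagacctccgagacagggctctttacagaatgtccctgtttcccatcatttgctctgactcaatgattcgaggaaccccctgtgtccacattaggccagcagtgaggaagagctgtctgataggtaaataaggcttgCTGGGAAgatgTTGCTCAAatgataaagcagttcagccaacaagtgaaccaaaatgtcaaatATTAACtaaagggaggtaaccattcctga
Fgg, chr3:83007474-83007723, plus strand: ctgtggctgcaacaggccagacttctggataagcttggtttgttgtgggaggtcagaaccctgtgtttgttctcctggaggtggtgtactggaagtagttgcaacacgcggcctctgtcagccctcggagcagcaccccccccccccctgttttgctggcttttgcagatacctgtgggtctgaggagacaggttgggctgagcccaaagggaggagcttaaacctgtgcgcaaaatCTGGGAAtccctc
C8a, chr4:104876399-104876648, minus strand: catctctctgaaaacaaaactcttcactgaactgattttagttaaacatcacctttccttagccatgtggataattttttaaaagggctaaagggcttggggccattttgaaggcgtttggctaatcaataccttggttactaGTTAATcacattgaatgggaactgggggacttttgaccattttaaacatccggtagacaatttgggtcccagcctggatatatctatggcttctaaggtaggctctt
C8b, chr4:104766067-104766316, plus strand: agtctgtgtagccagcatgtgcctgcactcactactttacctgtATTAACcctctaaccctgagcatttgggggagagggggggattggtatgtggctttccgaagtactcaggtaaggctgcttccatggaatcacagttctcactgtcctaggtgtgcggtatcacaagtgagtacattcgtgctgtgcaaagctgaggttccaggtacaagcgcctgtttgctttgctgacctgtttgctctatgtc

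Fga and Fgb each hold an HNF1 core close to the start, 43 to 38 bases before it in Fga and 29 to 24 bases before it in Fgb. Their C/EBP cores lie 135 to 128 and 80 to 73 bases before the start. CTGGGAA occurs 91 to 85 bases before the start of Fgb and 13 to 7 bases before that of Fgg. The HNF1 cores of C8a and C8b lie farther out, at 107 to 102 and 206 to 201 bases. Among the 30 promoters of the family, 8 (26.7%) hold the HNF1 core, against 6.43% of 32851 mouse promoters of the same length. The C/EBP core was found in 7 of 30 (23.3%) against 9.56%, and CTGGGAA in 4 of 30 (13.3%) against 9.1%. Of 2 longer motifs, the full HNF1 site GTTAATNATTAAC, which contains the core on each strand, was found in 0 of 30 and in 0.00913% of all, and the HNF4 core CAAAGTNCA in 1 of 30 (3.33%) and 1.19% of all. These are letter matches and a description, with no test.

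The depth of the libraries was 14925778 to 28016953 counts per fetus, with overlapping ranges in the groups (14925778 to 27848100 in control and 16703824 to 28016953 in MNR). Counts were summed over littermates, so that the litter is the replicate, and CPM below denotes those counts scaled to a common library size with TMM factors. As a check of the labelled tissue, 13 hepatocyte markers, with Alb and Afp among them, held 18.2% to 19.9% of the counts in control litters and 17.1% to 19.4% in MNR litters. Markers of red cell precursors held 3.004% to 4.98% in control and 3.24% to 4.16% in MNR litters. Control litter D stood apart in the mean log2 CPM over the markers, in which each gene counts equally. Its hepatocyte markers lay 0.23 below the control mean in this measure and its erythroid markers 0.37 above it. Its values, or results without it, are therefore given for many of the results below, though not for all. By summed share its hepatocyte markers did not stand apart, at 18.26% beside 18.24% in control litter A, while its erythroid share of 4.98% was the highest. In bulk tissue, fewer cells of a type and less RNA per cell cannot be told apart.

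Summed over genes, coagulation mRNA and complement mRNA each held close to equal shares of the counts in control and MNR livers. Coagulation mRNA made up 4.02% ± 0.118 of all counts in control litters and 3.99% ± 0.195 in MNR litters (mean ± SD, n = 5 litters each). Complement mRNA made up 1.502% ± 0.104 and 1.501% ± 0.208. These sums rest largely on a few abundant genes and say little about the others. In control litters the 3 fibrinogen chains held 2.75% of counts, and C2, C4b, C3 and Cfb together 1.08%, most of it C3. Of 17573 genes tested by quasi-likelihood in edgeR, 117 (0.666%) had a Benjamini-Hochberg adjusted p under 0.05, 0.415% on the higher and 0.25% on the lower side in MNR. Of the 39 genes 0 did. DESeq2 on the same litter sums called 1 of the 39, the clotting factor F11, where it called 1163 of 15526 genes (7.49%). With an unadjusted edgeR p under 0.05 there were 4 of 39 (10.3%), Masp1 on the higher side and F11, Mbl1 and Mbl2 on the lower side, against 3452 of 17573 genes (19.6%), 9.95% on the higher and 9.69% on the lower side.

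The 2 systems had nearly the same median difference between the diets. The median log2 fold change, MNR over control, was 0.021 over the 20 coagulation genes, with 14 above 0 and 6 below. Over the 19 complement genes it was -0.0029, with 9 above 0 and 10 below. Both are close to the median of all tested genes, -0.0027. Without control litter D the medians were -0.022 for coagulation, a change of sign, and -0.046 for complement. The systems differed in precision: the 95% interval of the fold change lay within 1.25-fold either way for 17 of 20 coagulation genes and for 7 of 19 complement genes, against 7517 of 17573 genes tested. Within 1.5-fold lay 20 of 20 and 14 of 19, against 13262 of all. The median standard error (SE) of the log2 fold change was 0.084 for coagulation, 0.13 for complement and 0.10 over all tested genes. A change of more than 1.5-fold is thus outside the interval of each coagulation gene, while the 5 complement genes Mbl1, Mbl2, Hc, C9 and C4bp have intervals that reach past it.

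**Figure D1:**
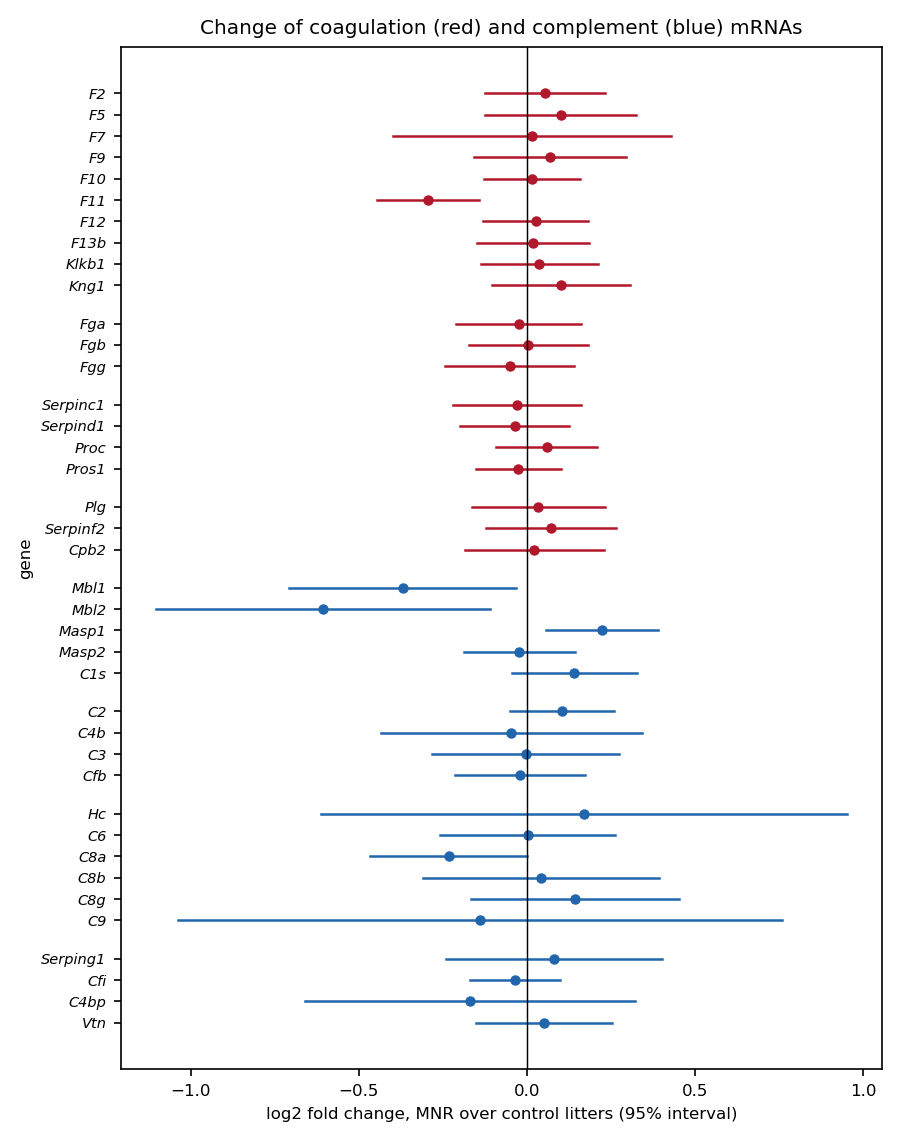
Log2 fold change of each of the 39 genes, MNR over control (x axis), with its 95% interval as a bar, coagulation in red and complement in blue, grouped by role from top to bottom. The coagulation points lie between -0.29 (F11) and 0.10, the complement points between -0.61 (Mbl2) and 0.22 (Masp1), and the bars of Hc and C9 are the widest.

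Among the proteases and cofactors of the clotting chain, F11 had the largest difference between the diets and the other 9 had differences of at most 0.10 on the log2 scale. F11 encodes factor XI, which sustains thrombin formation by activating factor IX, and is found on chromosome 8, minus strand, from 46326524 to 46347385 (mm9). Its level was 206, 226, 244, 198 and 224 CPM in control litters A to E and 161, 187, 183, 188 and 177 CPM in MNR litters A to E. The MNR litters all lay below the lowest control litter. Litters separated in this way for 4.5% of all tested genes, 2.28% higher and 2.23% lower in MNR, and for F11 (lower) and Masp1 (higher) among the 39. The means were 219.5 ± 18.0 and 179 ± 10.7 CPM (SD, n = 5), a log2 fold change of -0.29 (SE 0.070, 95% interval -0.45 to -0.14). The adjusted p was 0.0674 in edgeR and 0.00273 in DESeq2, so the call depends on the test. Single fetuses of the groups overlapped: MNR fetuses B_1 (195 CPM), C_1 (192 CPM) and D_2 (224 CPM) lay above the lowest control fetus, D_1 (190.3 CPM).

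**Figure D2:**
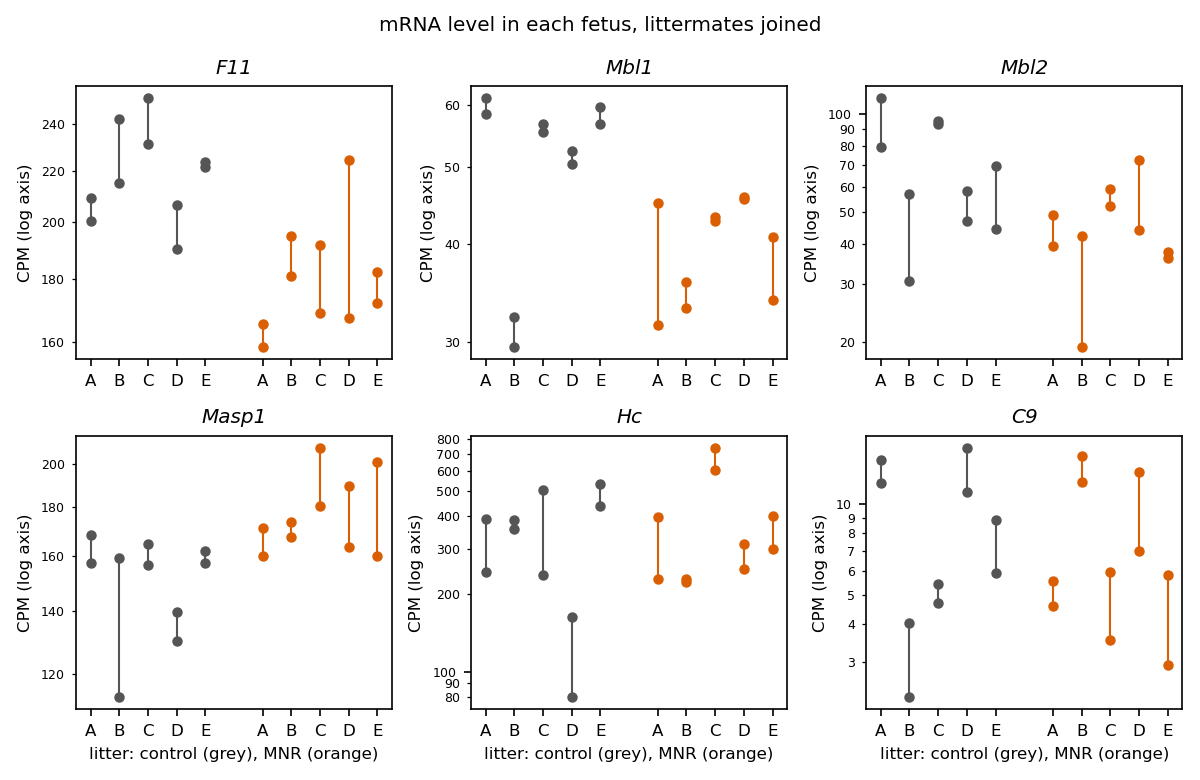
CPM on a log axis in each of the 20 fetuses for 6 genes, control in grey and MNR in orange, with a line joining the 2 littermates of a litter. Of the F11 points of MNR, 3 reach into the control range and that of fetus D_2 is the highest, the Mbl1 points of control litter B lie among or under those of MNR, and Hc runs from 79.9 CPM in control fetus D_1 to 735 CPM in MNR fetus C_1.

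F2, which encodes prothrombin, stood at 1556, 1826, 1772, 1401 and 1641 CPM in control litters A to E. In MNR litters A to E it stood at 1579, 1719, 1668, 1705 and 1840 CPM. The groups overlapped, with control litter D the lowest of all 10, and the log2 fold change was 0.054 (SE 0.082, edgeR adjusted p = 0.756). Kng1 encodes kininogen, the cofactor of the contact system and source of bradykinin. It had the highest level per kilobase of the 10 cascade mRNAs. Its mean was 2874 ± 348 CPM in control litters and 3083 ± 209 CPM in MNR litters (log2 fold change 0.10, SE 0.094, edgeR adjusted p = 0.587). Control litter D was again the lowest, at 2291 CPM against 2896 to 3222 CPM in the other control litters.

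The remaining 7 cascade genes had adjusted p-values of 0.625 to 0.975 in edgeR. They are F12 and Klkb1 of the contact system, which start the chain on surfaces, F7, F9 and F10 of the vitamin K-dependent proteases, the cofactor F5, and F13b, the carrier subunit of the enzyme that cross-links fibrin. F7, the protease that tissue factor engages at a wound, was the most variable of the coagulation genes. It stood at 25.5, 29.6, 35.9, 20 and 32.5 CPM in control litters A to E and 26.5, 24.1, 44.2, 26.0 and 24.1 CPM in MNR litters A to E. MNR litter C was the highest of all 10 and control litter D the lowest. F10, the next gene on chromosome 8, encodes the substrate of factor VIIa. Per kilobase of coding transcript its level in control was 185 against 15.5 CPM per kb for F7, and it varied little, from 426 to 509.7 CPM in control and 440.2 to 493.4 CPM in MNR litters.

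The 3 fibrinogen mRNAs were the most abundant of the coagulation genes per kilobase, and their levels differed little between the diets. Together they held 2.75% ± 0.0837 of counts in control and 2.69% ± 0.22 in MNR litters. Fga was at 10460, 11353, 10292, 10963 and 11511 CPM in control litters A to E and at 9992, 11471, 9352, 12067 and 10800 CPM in MNR litters A to E. MNR held both the lowest litter (C) and the highest (D). The log2 fold changes were -0.024 for Fga (SE 0.085), 0.0046 for Fgb (SE 0.081) and -0.050 for Fgg (SE 0.088), with edgeR adjusted p-values of 0.905, 0.983 and 0.794. Their signs changed under other settings and are not read. Per kilobase of the longest coding transcript, in control litters, Fgb had the highest level of the 39 genes, 5785 CPM per kb, followed by Fga at 4139 and Fgg at 3994.

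The 3 chains kept an almost fixed ratio in each fetus. They assemble into a hexamer with equal numbers of each chain. Of the summed fibrinogen level per kilobase, Fga made up 29.1% to 30.4% over the 20 fetuses, Fgb 40.7% to 43.0% and Fgg 27.3% to 29.2%. This held while the level itself moved: Fga ranged from 8849 CPM in MNR fetus C_2 to 13626 CPM in MNR fetus D_2. The genes lie within a stretch of chromosome 3 that runs from Fgg at 82811781 to Fgb at 82853725 (mm9), Fgb on the opposite strand to the other 2.

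The mRNAs of C8, which is also assembled from 3 chains in equal numbers, did not keep such a ratio. C8a made up 12.1% to 27.5% of the summed level per kilobase over the 20 fetuses, C8b 59.1% to 71.1% and C8g 12.6% to 20.01%. Over 10 litters, each centred on its group mean, the correlation of log2 CPM was 0.96 to 0.98 between pairs of fibrinogen chains. Between C8b and C8g it was 0.82, between C8a and C8b -0.14, and between C8a and C8g -0.43. C8a and C8b are neighbours on chromosome 4, and C8g lies on chromosome 2. These correlations are descriptions over 10 points that share library scaling and tissue makeup. Without control litter D the fibrinogen pairs stood at 0.97 to 0.99, C8b with C8g at 0.73, C8a with C8b at 0.041 and C8a with C8g at -0.32. Single litters moved the C8a values: without control litter B they were -0.64 with C8b and -0.61 with C8g, and without MNR litter C 0.079 and -0.45.

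**Figure D3:**
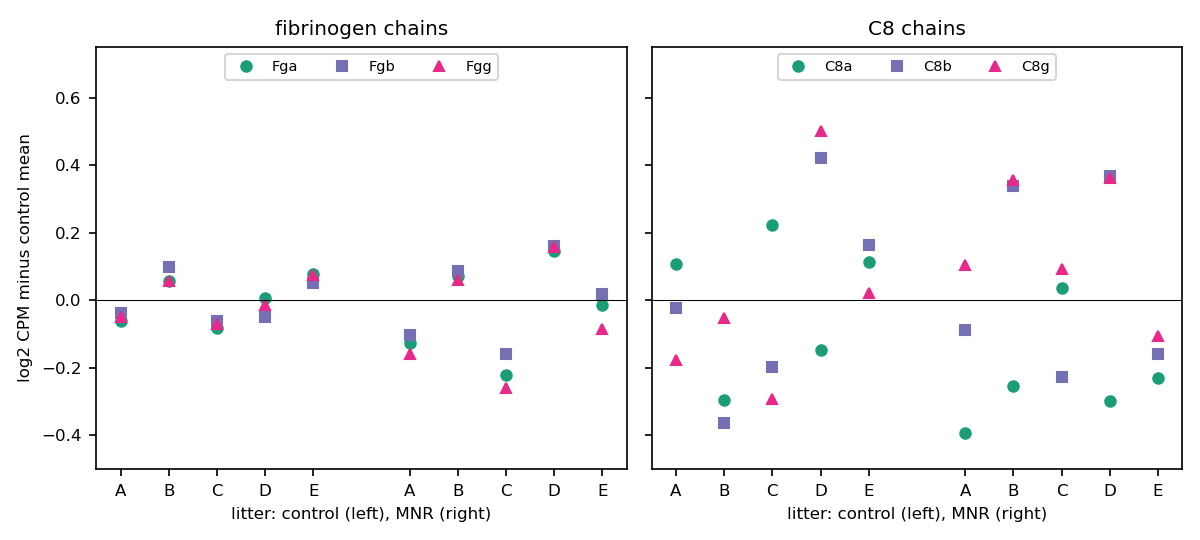
Log2 CPM of the 3 fibrinogen chains (left) and the 3 C8 chains (right) in each litter, minus the mean of the 5 control litters of that gene, with each marker a litter. The fibrinogen markers of a litter lie on or near each other in all 10 litters, while C8a (circles) lies away from C8b and C8g in most, for example in control litter D and MNR litter D.

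The 4 inhibitors of clotting had log2 fold changes from -0.036 to 0.059. Serpinc1, which encodes antithrombin, the main inhibitor of thrombin and factor Xa, was at 1241, 1295, 1333, 1082 and 1297 CPM in control litters A to E. In MNR litters A to E it was at 1085, 1124, 1408, 1215 and 1291 CPM. The groups overlapped over nearly their whole range (log2 fold change -0.029, SE 0.087, edgeR adjusted p = 0.887). Proc encodes the precursor of activated protein C, which inactivates factors Va and VIIIa, and averaged 333 ± 25.9 CPM in control litters and 347 ± 18.8 CPM in MNR litters (log2 fold change 0.059, SE 0.069, edgeR adjusted p = 0.678). Its cofactor protein S, Pros1, had the lowest level per kilobase of the coagulation genes, with means of 27.9 ± 2.02 and 27.5 ± 1.03 CPM. Serpind1, heparin cofactor II, was at 451 ± 43.0 and 440 ± 18.4 CPM.

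The fibrinolysis genes likewise stood at similar levels. Plg encodes plasminogen, the precursor of the fibrin-dissolving protease, and was at 2846, 3035, 2904, 2191 and 2859 CPM in control litters A to E. In MNR litters A to E it was at 2664, 2709, 3070, 2847 and 2882 CPM. Control litter D lay far under all 9 others, and the log2 fold change was 0.035 (SE 0.091, edgeR adjusted p = 0.869). Serpinf2, the plasmin inhibitor alpha 2-antiplasmin, had the same low litter, with control litter D at 955 CPM and the other 9 litters at 1169 to 1354 CPM (log2 fold change 0.071, SE 0.089, edgeR adjusted p = 0.699). Cpb2, a carboxypeptidase that protects fibrin from plasmin, ran the other way: control litter D was the highest of 10 litters at 430 CPM, and MNR litter C the lowest at 309 CPM. Its log2 fold change was 0.022 (SE 0.095, edgeR adjusted p = 0.921).

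Of the 5 genes that start the lectin and classical pathways, 3 of the lectin pathway had an unadjusted p under 0.05 in edgeR, and none of the 5 passed after adjustment. Over all tested genes 19.6% had an unadjusted p under 0.05 in edgeR. Mbl1 and Mbl2 encode the mannose-binding lectins A and C, which recognise microbial sugars, and Masp1 and Masp2 the proteases they carry. Mbl2, on chromosome 19 at 30307418 to 30314175 (mm9), was at 91.9, 44.6, 94.6, 51.8 and 57.0 CPM in control litters A to E and at 43.9, 31.7, 56.5, 54.1 and 36.9 CPM in MNR litters A to E. Control litters A and C were far above the rest, and the other 3 lay within or just above the MNR range. The log2 fold change was -0.61 (SE 0.23, 95% interval -1.10 to -0.11, edgeR adjusted p = 0.173).

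Mbl1, on chromosome 14 at 41964745 to 41972248 (mm9), was at 59.5, 30.9, 56.3, 51.5 and 58.5 CPM in control litters A to E. In MNR litters A to E it was at 38.0, 34.4, 43.2, 45.6 and 37.5 CPM. Apart from control litter B, which was the lowest of all 10, each control litter lay above each MNR litter. The log2 fold change was -0.37 (SE 0.15, edgeR adjusted p = 0.219), and without control litter B it was -0.51 (edgeR adjusted p = 0.0159), so that this litter decides the call. Without that litter 4.75% of all tested genes were called. Masp1, on chromosome 16 at 23449490 to 23520676 (mm9), differed in the other direction, at 164, 138, 162, 135 and 160 CPM in control and 165, 170, 197, 173 and 181 CPM in MNR litters A to E. The lowest MNR litter, A, lay just above the highest control litter, also A, and the log2 fold change was 0.22 (SE 0.076, edgeR adjusted p = 0.139). With the 20 fetuses treated as separate libraries, Mbl1 passed as lower and Masp1 as higher (edgeR adjusted p = 0.0418 and 0.0249), a setting that counts littermates as independent and calls 14.3% of all tested genes.

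Masp2, the protease that cleaves C4 and C2, averaged 69.6 ± 7.44 CPM in control litters and 68.6 ± 4.29 CPM in MNR litters, and its exons overlap those of Tardbp on the opposite strand. C1s, a protease of the classical pathway, was at 254, 314, 299, 253 and 275 CPM in control litters A to E and 271, 328, 346, 291 and 303 CPM in MNR litters A to E. The groups overlapped (log2 fold change 0.14, SE 0.086, edgeR adjusted p = 0.395), and C1s shares exon sequence with Gm5077 on the same strand.

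The convertase proteins, which cleave C3 and C5, showed no call. C3 is the central protein on which all pathways converge and had the highest complement mRNA level per kilobase. It was at 9091, 9901, 9933, 7936 and 9471 CPM in control litters A to E. In MNR litters A to E it was at 7300, 8212, 11664, 8547 and 10518 CPM. The MNR litters held the lowest value and the 2 highest, and the log2 fold change was -0.0029 (SE 0.13, edgeR adjusted p = 0.993). C4b, the C4 protein that joins C2 in the classical convertase, was at 525, 786, 744, 385 and 581 CPM in control litters and 506, 551, 651, 507 and 711 CPM in MNR litters A to E. Its control litters spread around those of MNR on both sides (log2 fold change -0.046, SE 0.18, edgeR adjusted p = 0.913).

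C2, the protease subunit of the classical convertase, averaged 63.5 ± 5.75 CPM in control litters and 68.3 ± 4.32 CPM in MNR litters (log2 fold change 0.10, SE 0.070, edgeR adjusted p = 0.448). Cfb, its counterpart in the alternative pathway, was at 829.3 ± 100.3 and 817.5 ± 53.4 CPM. C4b, Cfb and C2 lie near each other on chromosome 17, and C2 and Cfb both share exon sequence on the same strand with the read-through gene model Gm20547, which was counted at 392 and 388 CPM. The sources used here do not say how reads matching several genes were counted, and the split between these 3 is uncertain. The same holds for C4b and its paralog C4a (286 and 287 CPM), and for Kng1 and its paralog Kng2 (528 and 556 CPM).

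The terminal proteins, which form the membrane pore, held the 2 genes that varied most. Hc, the mouse gene of C5, lies on chromosome 2 at 34838851 to 34916958 (mm9). It was at 299, 372, 359, 115 and 490 CPM in control litters A to E and at 310, 225, 681, 272 and 353 CPM in MNR litters A to E. Control litter D and MNR litter C were the extremes, and the other 8 litters of both groups lay between 225 and 490 CPM. The log2 fold change of 0.17 had an SE of 0.36 and a 95% interval of -0.61 to 0.95 (edgeR adjusted p = 0.832). Over single fetuses Hc ran from 79.9 CPM in control D_1 to 735 CPM in MNR C_1, a 9.2-fold range, and littermates differed as well, with 505 and 237 CPM in control litter C.

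C9, the subunit that polymerises into the pore, was at 12.6, 3.22, 5.06, 13.5 and 7.41 CPM in control litters A to E and at 5.06, 13.2, 4.92, 10.6 and 4.42 CPM in MNR litters A to E. Its litters fell into high and low values within both groups, and the log2 fold change was -0.14 (SE 0.41, edgeR adjusted p = 0.885). C8a, which starts pore insertion, was at 162, 122, 175, 135.5 and 162 CPM in control and 114, 126, 154, 122 and 128 CPM in MNR litters A to E. Control litters A, C and E lay above all MNR litters and control litters B and D among them (log2 fold change -0.23, SE 0.11, edgeR adjusted p = 0.256). C8b was at 316 ± 68.2 and 325 ± 65.3 CPM, and C8g at 38.2 ± 8.80 and 42.3 ± 5.76 CPM. C6, at 4.23 ± 0.524 and 4.24 ± 0.595 CPM, had the lowest level per kilobase of the 39 genes, 1.24 CPM per kb in control, against 1806 CPM per kb for C3.

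The complement regulators had adjusted p-values of 0.722 to 0.804 in edgeR. Vtn encodes vitronectin, which keeps the terminal complex out of membranes, and was at 1848, 1875, 1664, 1697 and 1913 CPM in control litters A to E. In MNR litters A to E it was at 1580, 2103, 1806, 2127 and 1703 CPM, with both the lowest and the highest litters in MNR (log2 fold change 0.051, SE 0.093, edgeR adjusted p = 0.804). C4bp, which disarms the classical convertase, was at 19.8, 9.91, 15.7, 9.99 and 10.6 CPM in control and 14.1, 10.9, 9.88, 8.23 and 15.7 CPM in MNR litters A to E. The groups overlapped over most of their range (log2 fold change -0.17, SE 0.23, edgeR adjusted p = 0.722). Serping1, the C1 inhibitor, which also restrains the contact proteases of clotting, was at 346 ± 80.0 and 366 ± 44.5 CPM. Cfi, the protease that inactivates C3b and C4b, was at 601 ± 23.8 and 586 ± 33.7 CPM.

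The complement genes had a larger spread between litters of the same group than the coagulation genes, given here as a description with no test. The SD over litters within a group, on log2 CPM, had a median of 0.12 over the coagulation genes and 0.22 over the complement genes, against 0.16 over all tested genes. Between littermates the medians were 0.12, 0.16 and 0.17. The largest litter SD were those of C9 (0.80), Hc (0.71), Mbl2 (0.43), C4bp (0.42), F7 (0.35) and C4b (0.33). Each of these lay above at least 91.6% of 500 genes of like level. The smallest was that of Cfi, 0.073, in the 9th percentile of its class (8.98). In alternatives chosen after the data were seen, the medians were 0.088 and 0.20 without control litter D, and 0.088 and 0.18 relative to the mean of the hepatocyte markers of each litter. The SD of Hc was 0.50 and that of C9 0.77 without control litter D.

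**Figure D4:**
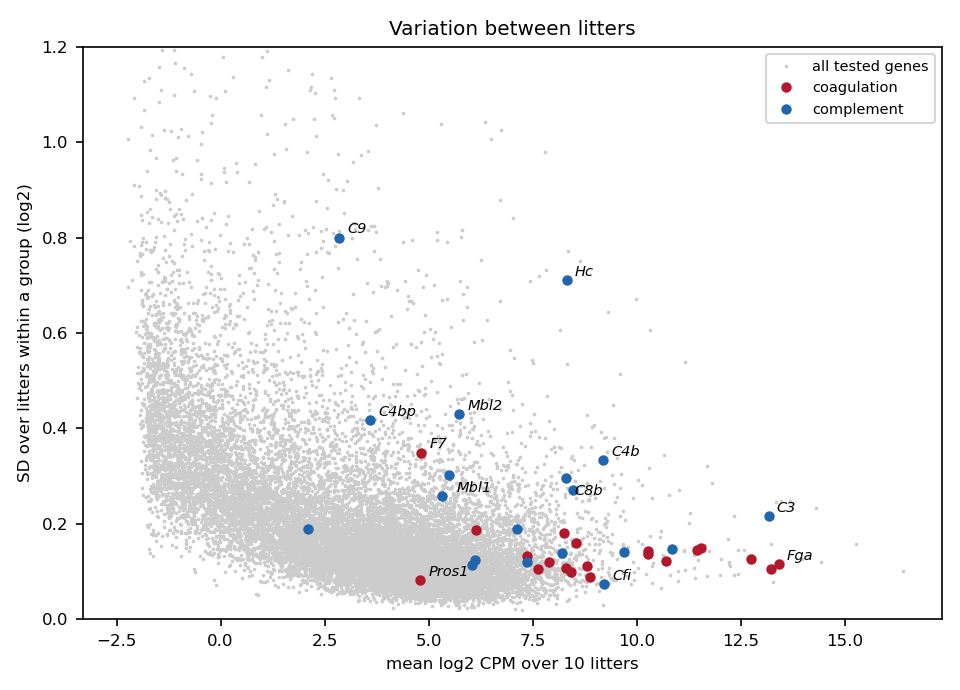
SD over litters within a group (y axis, log2) against mean log2 CPM over 10 litters (x axis), with all tested genes in grey, coagulation in red and complement in blue. C9, Hc, Mbl2, C4bp and Mbl1, and also the coagulation gene F7, stand in the upper part of the grey cloud. They lie at or above the 96th percentile (96.6) of genes of like level, and 51 genes lie above the axis limit of 1.2.

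The coagulation genes also had higher correlations with each other from litter to litter than the complement genes had. Over 10 litters centred on their group means, the median correlation of log2 CPM was 0.58 over 190 pairs of coagulation genes, 0.13 over 171 pairs of complement genes and 0.25 over 380 pairs across the systems. These points share library scaling and the makeup of the tissue. Without control litter D the medians were 0.29, 0.075 and 0.16, and relative to the hepatocyte markers 0.22, 0.10 and 0.058. Control fetus D_1 was the lowest of 20 fetuses for 14 of 20 coagulation genes and for 4 of 19 complement genes. MNR fetus D_2 was the highest for 11 coagulation and 4 complement genes. The mean of the hepatocyte markers correlated above 0.5 with 15 of 20 coagulation genes (5 of 20 without control litter D) and with 7 of 19 complement genes (5 of 19).

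Some genes had other correlations than most. Fibrinogen had low correlations with the hepatocyte markers, 0.094 for Fga, 0.28 for Fgb and 0.12 for Fgg, where F13b reached 0.96 and Klkb1 0.87. Without control litter D fibrinogen did not stand apart: Fga was at 0.23, Fgb at 0.23 and Fgg at 0.17, beside 0.54 for Klkb1 and 0.82 for F13b, but 0.035 for Serpinf2, 0.07 for F7 and 0.13 for F10. Cpb2 correlated at -0.80 with Serpinf2 and at -0.80 with F5, but at 0.71 with Fga, 0.51 with Fgb and 0.68 with Fgg, and it moved with C8b (0.87) and C8g (0.73). C9 moved with C8b (0.89) and against Hc (-0.64, and -0.53 without control litter D), although C9 and C5 join in the same pore. C9 and the mean of the erythroid markers correlated at 0.87, and at 0.92 without control litter D. For C8b the erythroid correlation was 0.76 and 0.62, and for C8g 0.74 and 0.38. Whether the share of blood cells in the tissue has a part in these values was not tested. C8a followed Masp1 (0.93) and C6 (0.87), and Hc followed Serpind1 (0.92). Control litter D was the highest of all litters for Cpb2, C8b, C8g and C9, and the lowest for F5, Serpinf2, Serpind1 and Hc. Apart from C9 with Hc, the correlations between single genes in this paragraph are given only with that litter included. For Cpb2 the erythroid correlation was 0.54, and 0.19 without control litter D.

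**Figure D5:**
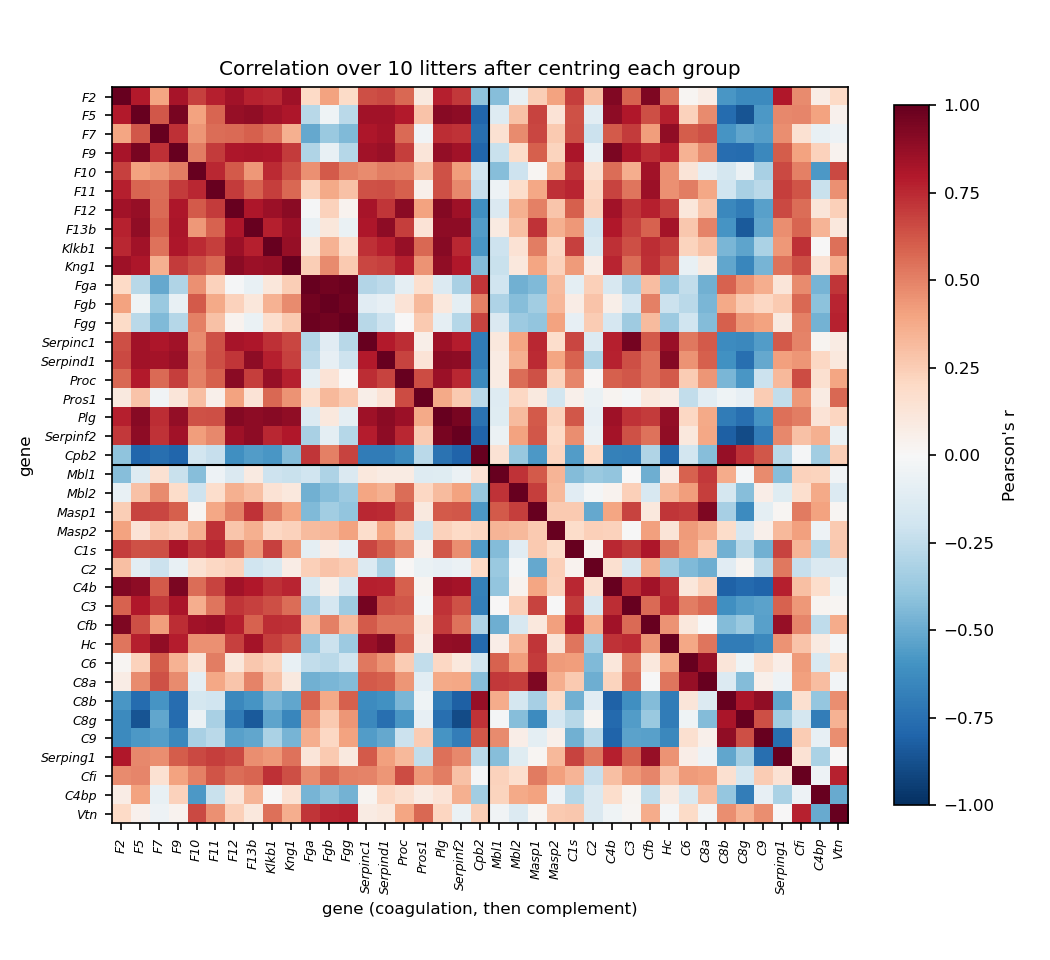
Pearson's r between each pair of the 39 genes over 10 litters, after each group was centred on its mean, coloured from -1 (blue) to 1 (red), with black lines between coagulation (first) and complement. Most clotting proteases and inhibitors form a red block, in which Pros1 is paler (0.097 with F2, but 0.65 with Proc). The fibrinogen chains form a small block of their own, and are red also with Cpb2 (0.51 to 0.71) and Vtn (0.71 to 0.77). C8b, C8g, C9 and Cpb2 show blue against most clotting genes.

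The correlation between neighbouring genes, in the same measure, differed from locus to locus. The fibrinogen cluster stood at 0.96 to 0.98, and Cfb with C4b at 0.84. F11 and Klkb1, adjacent on chromosome 8, stood at 0.69 with control litter D and 0.51 without it, F7 and F10 at 0.44 and 0.21, and C2 with Cfb at 0.37 and 0.55. C8a and C8b, neighbours on chromosome 4, stood at -0.14 with control litter D and 0.041 without it. Mbl1 and Mbl2, on different chromosomes, stood at 0.73 and 0.78.

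The counts were deposited per transcript, and how reads shared by transcripts were assigned is not stated, so transcript shares are not read here as isoform use. For 5 genes chosen after their values were seen (Proc, Serpinf2, F2, Cfb and C1s), the larger of the 2 most counted transcripts took 50.03% to 52.2% of their joint counts. Over 20 fetuses this share varied as a random split would, with a chi-square over its degrees of freedom of 0.643 to 1.05. The same ratio was 35.6 for Fga, 7.87 for Masp1 and 3.12 for Fgg, so their shares varied more between fetuses than a random split. For a given spread of shares this ratio grows with the number of counts. The share ran only from 53.9% to 56.4% for Fga and 55.4% to 56.2% for Fgg, beside 48.9% to 52.4% for C1s. Masp1-201 held 77.3% of the joint counts of the 2 Masp1 transcripts (69.3% to 79.3% over fetuses). All gene values above are sums over transcripts.

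Among other genes of clotting and fibrinolysis, 28 were tested and 1 was called, Tfpi2, against 0.666% of all tested genes. It was lower in MNR. Tfpi2 encodes a Kunitz-type inhibitor of plasmin and was at 34.8, 31.1, 41.1, 33.6 and 34.5 CPM in control litters A to E and 27.7, 26.7, 24.7, 25.7 and 23.7 CPM in MNR litters A to E. The groups did not overlap, and Tfpi2 fell by 0.45 on the log2 scale (SE 0.075, edgeR adjusted p = 0.032). The call was made in 14 of 24 settings, the reported one included, with adjusted p-values from 3.609e-05 to 0.279. It was lost without control litter A, C, D or E or MNR litter A, B, C or E (edgeR adjusted p = 0.0608 to 0.0872), and with hepatocyte marker scaling or fetus 1 alone. Habp2, a protease that can activate factor VII, averaged 99.5 ± 8.21 CPM in control litters and 78.5 ± 5.60 CPM in MNR litters (log2 fold change -0.34, SE 0.072, edgeR adjusted p = 0.0555). The median over the 28 genes was -0.034.

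Of 11 genes that modify or export clotting factors, 0 were called in edgeR. An unadjusted edgeR p under 0.05 was found for 4 (36.4%), against 19.6% of all tested genes. Ggcx, the carboxylase that gives vitamin K-dependent factors their calcium-binding residues, was at 67.5, 53.6, 66.1, 75.7 and 76.9 CPM in control and 48.3, 55.8, 49.4, 58.2 and 50.9 CPM in MNR litters A to E. Control litter B lay among the MNR litters and the other 4 above them (log2 fold change -0.37, SE 0.095, edgeR adjusted p = 0.0757). Calu, an inhibitor of that carboxylase, was at 240 ± 20.8 and 197 ± 12.2 CPM with no overlap of litters (log2 fold change -0.28, SE 0.072, edgeR adjusted p = 0.0751). Their substrates F2, F7, F9, F10, Proc and Pros1 had log2 fold changes of -0.025 to 0.069.

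Of 33 other complement genes 30 were tested and 0 were called in edgeR, with a median log2 fold change of 0.046. An unadjusted edgeR p under 0.05 was found for 4 (13.3%), against 19.6% of all tested genes. C7, Cfd and Cr2 were too low to be tested. The membrane regulator Cd59a, which blocks C9 from joining the pore, averaged 36.3 ± 5.60 CPM in control litters and 46.2 ± 6.56 CPM in MNR litters (log2 fold change 0.35, SE 0.12, edgeR adjusted p = 0.137). Cpn1, the catalytic subunit of the enzyme that trims complement anaphylatoxins, was at 320 ± 27.0 and 279 ± 24.1 CPM (log2 fold change -0.20, SE 0.078, edgeR adjusted p = 0.191).

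Of 22 transcription factors of liver genes, 1 was called in edgeR, against 0.666% of all tested genes, and the median log2 fold change was 0.16. An unadjusted edgeR p under 0.05 was found for 10 (45.5%, 8 higher and 2 lower), against 19.6% of all tested genes. The called gene was Cebpb, whose protein binds acute phase promoters at C/EBP cores of the kind printed above. It was at 24.7, 30.2, 25.3, 24.9 and 27.1 CPM in control litters A to E and at 40.4, 36.3, 32.8, 34.8 and 41.9 CPM in MNR litters A to E. The MNR litters all lay above the highest control litter, and Cebpb rose by 0.49 on the log2 scale (SE 0.081, edgeR adjusted p = 0.0286). The call was made in 16 of 24 settings (adjusted p = 2.132e-05 to 0.312) and was lost with fetus 1 alone and without control litter A, C, D or E or MNR litter A, B or E (edgeR adjusted p = 0.0584 to 0.0871). Its relative Cebpd was at 12.5 ± 2.84 and 20.2 ± 4.06 CPM (log2 fold change 0.69, SE 0.17, edgeR adjusted p = 0.0685). The 7 genes of the family whose promoter holds the C/EBP core had log2 fold changes on both sides of 0. They were -0.29 for F11, -0.14 for C9, -0.024 for Fga, -0.0029 for C3, 0.0046 for Fgb, 0.037 for Klkb1 and 0.069 for F9. Whether Cebpb acts on these genes was not tested.

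Of 19 acute phase genes outside the family 16 were tested and 0 were called in edgeR, with a median log2 fold change of 0.076. An unadjusted edgeR p under 0.05 was found for 1 (6.25%), against 19.6% of all tested genes. That gene was Il6ra, which encodes the receptor of the cytokine that induces fibrinogen, C3 and other acute phase proteins. It was at 44.0, 46.9, 41.1, 33.2 and 44.7 CPM in control and 70.6, 63.7, 64.4, 42.3 and 70.3 CPM in MNR litters A to E. MNR litter D lay among the control litters and the other 4 above them (log2 fold change 0.57, SE 0.14, edgeR adjusted p = 0.0674). Lcn2, an iron-binding acute phase protein, was at 169 ± 20.5 and 200.9 ± 35.3 CPM (log2 fold change 0.25, SE 0.12, edgeR adjusted p = 0.267).

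Markers of the other cells of the fetal liver gave 0 calls in edgeR, and their lists moved as follows. All 10 megakaryocyte markers and all 9 neutrophil precursor markers had positive log2 fold changes, with medians of 0.26 and 0.26. All 7 B cell precursor and all 8 stellate cell markers had negative ones, with medians of -0.47 and -0.23. The hepatocyte markers, whose cells make most of the 39 mRNAs, had a median of -0.025 over 13 genes, and 11 of 12 erythroid markers were negative with a median of -0.11. The medians were 0.14 for 10 macrophage and -0.036 for 8 endothelial markers. The part of these cells in the values of the 39 genes was not tested.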

How the data were processed

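PolyA RNA of 20 fetal livers was sequenced from strand-preserving libraries, per the labels' protocols. The deposited values used here are raw counts per transcript, in a table per fetus. The submitters' processing notes name Bowtie2, FastQC, edgeR and DESeq2, and the build mm9. Their versions, the counter, its use of strand and its handling of multiply matching reads are not stated there. A deposited gene table equals the gene sums of these counts for 8.52% to 9.66% of genes in a fetus and was not used.

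Counts were summed to genes (NCBIM37 annotation), leaving out 0.0788% to 0.154% that matched no gene, and over littermates. The precision of each value follows from 14925778 to 28016953 counts per fetus and 5 litters per group, which are separate dams. After filterByExpr (minimum count 10) and TMM scaling, edgeR 4.0.16 (R 4.3.3) gave two-sided quasi-likelihood p-values, adjusted by Benjamini-Hochberg with a threshold of 0.05. DESeq2 1.42.0 and limma 3.58.1 were alternatives, beside other scalings, filters, single littermates, an erythroid covariate, a block and leaving out each litter. Log2 CPM for SD and correlations used a prior count of 2. The procedure was also run on simulated counts, whose outcome is not given here. Each gene was drawn separately, so shifts shared by the genes of a litter were not covered.

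The genes and lists were chosen with earlier results of these data known. The rule names, in each of 8 lists, the most abundant gene and that of smallest p, 12 fixed genes, and in other lists called genes and the 2 of smallest p. Some genes of these lists are not reported here.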

Additional observations from a re-analysis of the deposited data

Results flagged for a closer look

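In 98 groups of 5 litters, 10 had a litter whose distance to the nearest other exceeded Dixon's critical value of 0.71 of the group's range. Chance flags about 1 in 20 independent groups. These groups share the same litters, so the number of flags cannot be read against that rate. In control, litter D was far under the others for 4 coagulation genes. F13b was at 195.9 CPM there against 241 to 254.5 CPM in the other 4 litters, Serpind1 at 378 against 453 to 484 CPM, Plg at 2191 against 2846 to 3035 CPM, and Serpinf2 at 955 against 1232 to 1297 CPM. Control litter B was low for Mbl1, at 30.9 against 51.5 to 59.5 CPM.

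In MNR, litter C was far above the others for F7, at 44.2 against 24.1 to 26.5 CPM, and for Hc, at 681 against 225 to 353 CPM. It was also high for the summed start proteins of the lectin and classical pathways, which held 0.0715% of its counts against 0.0603% to 0.0623%, and for the summed terminal proteins, at 0.116% against 0.0789% to 0.0837%. MNR litter A was low for Cfb, at 724.5 against 820 to 852 CPM.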

How the results depend on the processing

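The 17573 tested genes gave 117 calls. There were 178 with upper-quartile scaling, 1163 with DESeq2, 1084 in limma-voom with litters as random effects, 2301 with fetuses as separate libraries, 499 with fetus 2 alone, 875 at an adjusted p of 0.10, and 0 with fetus 1 alone (1699 at an unadjusted p under 0.05). Leaving out single litters gave 0 to 843. Of the calls 62.4% were higher in MNR, against 38.2% with upper-quartile and 75.7% with hepatocyte marker scaling. With the litter letter as a replicate block 232 genes were called and 0 of the 39. Letters mark different dams. Same-letter litters correlated at -0.009 (E) to 0.184 (B), and the best match across the groups was the same letter for C and D but not for A, B and E. Whether litters of a letter share a batch was not tested. Of the coagulation genes 1, F11, was called in each of DESeq2, limma-voom, separate fetuses and the 0.10 threshold, and 0 to 0 without single litters. Of the complement genes 2 (Mbl1 and Masp1) were called with separate fetuses, and 0 to 1 without single litters. The cause was not tested. The median log2 fold change stayed within -0.022 to 0.043 for coagulation and -0.046 to 0.060 for complement without single litters, and the sign of their difference, 0.024, changed with fetus 1 alone (-0.015) and without MNR litter A (-0.021). Median correlations moved by more than 1.5-fold without control litter D, for complement also without control litter B (0.216) or MNR litter A (0.041), and between the systems without control litter B (0.417). F11 kept its sign in all 24 settings (-0.33 to -0.25), as did Mbl1, Mbl2 and Masp1, but also F2, Kng1, C1s, C2 and C8a. The settings share the same litters, so a kept sign adds no independent support. With 5 litters per group, the 95% interval lay within 1.25-fold for 24 of the 39 genes.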
